A study of Mus musculus with 6 samples.

Results

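The genes described here encode the proteins of the mitochondrial ribosome. They were taken as every gene whose single symbol in the annotation of the array starts with Mrpl or Mrps followed by a digit, and each gene was read from its probe set with the highest mean signal over the 6 arrays. This gave 76 genes of 18193 with a single-symbol probe set, 47 with an Mrpl symbol and 29 with an Mrps symbol. All 76 matched a RefSeq gene of the same symbol by Entrez identifier. Of 78 protein-coding RefSeq genes that fit the naming rule, Mrpl30 and Mrpl53 were not read, because their probe sets are annotated to a second gene as well.

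The cells were mouse hematopoietic stem cells, sorted from bone marrow of mice with a chronic myeloid leukemia (CML) model as positive for GFP, negative for lineage markers, and positive for c-Kit and Sca-1. One group carried an empty GFP vector, another expressed BCR/ABL, the fusion tyrosine kinase of CML, and the last expressed BCR/ABL in mice given imatinib, an inhibitor of that kinase. Each group had 2 arrays, and all cells compared had been transduced and sorted through the same gate. The series was made to find genes under the control of BCR/ABL in these stem cells. The sources used here give no strain, age, vector promoter, imatinib dose or length of treatment. Nor do they say that replicate arrays come from different animals, so p-values reflect the spread among these 6 arrays, part of which may be technical. RNA came from whole sorted fractions, in which fewer cells of a type and less RNA per cell cannot be told apart.

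The mitochondrial ribosome translates the few proteins that mitochondrial DNA encodes, all of them subunits of the respiratory chain and ATP synthase. Its RNA comes from mitochondrial DNA, whereas all of its proteins are encoded in the nucleus, made in the cytosol and imported. Many of the proteins have a counterpart in bacterial ribosomes, and others exist only in mitochondria. Hematopoietic stem cells are known for low reliance on mitochondrial respiration, and inhibitors of mitochondrial translation have been studied in leukemic cells.

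The deposited intensities of the 76 genes ran from 286 to 8341 over all arrays, and all 76 genes had a mean above the 50th percentile of the probe sets tested. Replicates of these genes lay close together: the median standard deviation between the arrays of a group was 0.10 for vector, 0.05 for BCR/ABL and 0.11 with imatinib on the log2 scale, and 0 of 76 genes differed more than 2-fold between replicates in any group. Genes of the sorting gate and of early progenitors differed between the groups, and all 5 measured were higher with imatinib than without. Kit, a gate marker, read 1637 and 2125 on the vector arrays, 1332 and 1116 on those of untreated BCR/ABL cells, and 2659 and 2602 under imatinib, a log2 difference of 1.13 with imatinib against untreated (adjusted p = 0.108 by limma). The receptor gene Flt3 had 1.36 (adjusted p = 0.202) and Cd34, at 4375 to 6020 over all arrays, 0.20. Markers of other cells also differed between the groups. The summed intensity of 8 measured B cell markers was 21190 and 4437 on the vector arrays, 1250 and 2301 on those of untreated BCR/ABL cells, and 642 and 1726 under imatinib, and all 8 were lower with imatinib than without. That of 9 mast cell and basophil markers was 16086 and 11337 on the vector arrays, 42457 and 41867 on those of untreated BCR/ABL cells, and 63757 and 55082 under imatinib. That of 4 megakaryocyte markers was 1246 and 1209, then 2336 and 2029, then 4281 and 3404 in the same order, with all 4 higher at each step. Vector replicate 2 stood apart for 9 granulocyte markers, at 49409 against 71577 to 81882 on the other arrays. The 3-prime to 5-prime ratio of beta-actin, a measure of RNA integrity and labelling, was 1.62 to 1.81 in vector, 1.30 to 1.48 in BCR/ABL and 1.55 to 1.74 with imatinib. It was lowest in both untreated BCR/ABL arrays. The part of these shifts in the results on mitochondrial ribosomal genes was not tested.

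Measured from each gene's vector mean, the median of the 76 genes stood at 0.01 and -0.01 on the log2 scale in the vector arrays, at 0.13 and 0.19 in the BCR/ABL arrays and at -0.27 and -0.33 in the imatinib arrays. The arrays of a group thus lay near each other, with BCR/ABL highest and imatinib lowest. The summed deposited intensity of the 76 genes had the same order, at 207597 and 206484 on the vector arrays, 223864 and 229106 on those of untreated BCR/ABL cells, and 175097 and 169138 under imatinib.

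**Figure D1:**
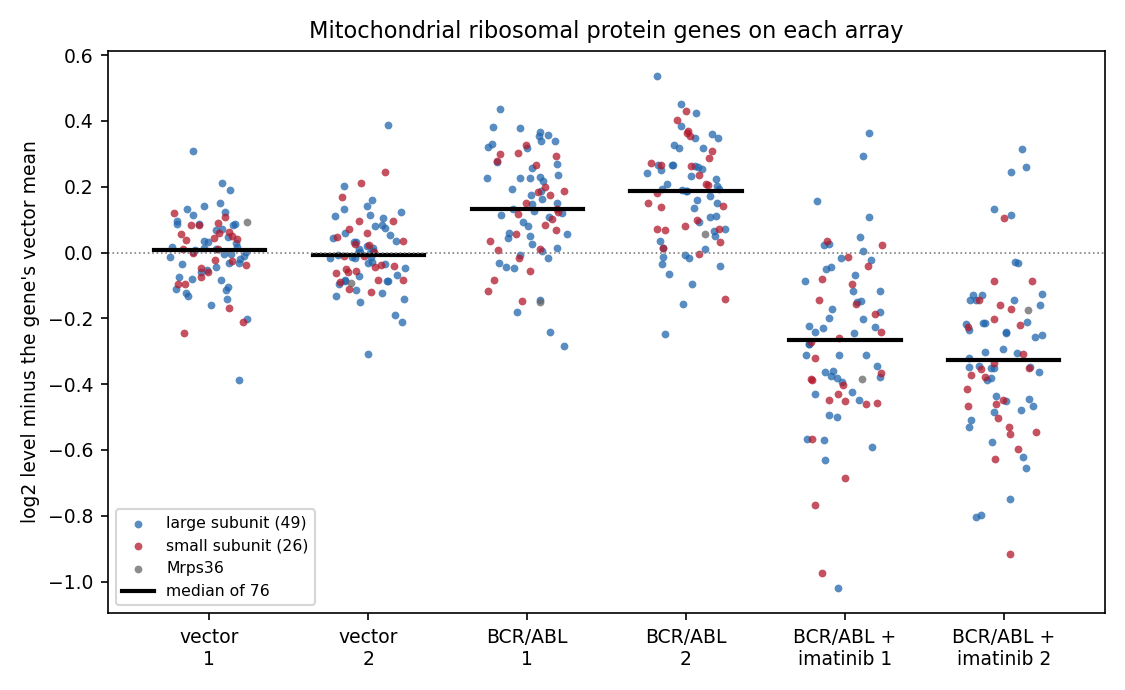
Log2 level of each of the 76 mitochondrial ribosomal protein genes minus that gene's mean over the vector arrays, for each of the 6 arrays (1 point a gene, coloured by subunit; black lines are medians). The medians of both imatinib arrays, -0.27 and -0.33, lie below those of the vector arrays, and those of both BCR/ABL arrays, 0.13 and 0.19, above them.

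The comparison of imatinib-treated with untreated BCR/ABL cells asked what imatinib changes. The level was lower with imatinib for 74 of 76 genes and higher for 2, where 51% of all genes were lower. The median log2 difference was -0.46, or 0.727 times the untreated level, against -0.01 over all genes, and the middle 50% of the genes lay between -0.60 and -0.29. The normalized log2 values of the treated and untreated arrays did not overlap for 69 genes, 68 of them lower, where 26.7% of all genes were lower without overlap. No single gene passed: limma called 0 of 76 at an adjusted p under 0.05, as it called 0 of 35877 probe sets (0% called). Scaled by array medians instead, which lowered the median of all genes to -0.27, 39 of 76 passed, where 3.79% of all genes were called lower. At an unadjusted p under 0.05, 54 of 76 genes were lower (71.1%) and 0 higher, where 9.13% of all genes were lower and 7.88% higher. Among the 10093 genes with a brighter probe set, above the 50th percentile, the background was 13% lower, and 48 of the 76 were lower in that fit. The count of 54 was 30 without BCR/ABL replicate 2, where 5.7% of all genes were lower, and 41 to 53 without any other array.

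Mrpl12 had the smallest p of the 76. It encodes the stalk protein that recruits translation factors to the large subunit. Its deposited intensities were 4539 and 4210 on the vector arrays, 5098 and 5062 on those of untreated BCR/ABL cells, and 2919 and 2679 under imatinib. Both imatinib arrays lay below the other 4, and both BCR/ABL arrays above them. The log2 difference of imatinib against untreated was -0.83 (SE 0.09, adjusted p = 0.102 by limma), which is 0.562 times the untreated level.

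Mrpl17, a counterpart of a bacterial protein near the peptide exit tunnel, followed the same order without overlap. Its intensities were 3521 and 3381 on the vector arrays, 4343 and 4442 on those of untreated BCR/ABL cells, and 2777 and 2709 under imatinib, with a log2 difference of -0.65 (SE 0.08, adjusted p = 0.108). Mrpl38, a mitochondria-specific protein of the central protuberance, had the lowest difference of all 76 genes. It measured 564 and 592 on the vector arrays, 729 and 769 on those of untreated BCR/ABL cells, and 286 and 357 under imatinib, and differed by -1.26 (SE 0.19, adjusted p = 0.108). Its other probe set with a mean above 100 had a difference of -1.63.

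Mrps18a carries the name of a small subunit protein but sits in the large subunit of the known mammalian structures. Its intensities were 1764 and 1880 on the vector arrays, 2394 and 2220 on those of untreated BCR/ABL cells, and 1476 and 1390 under imatinib, and its log2 difference with imatinib was -0.66 (SE 0.11, adjusted p = 0.114). Mrps22, a mitochondria-specific protein of the small subunit whose human gene is mutated in mitochondrial disease, measured 1514 and 1758 on the vector arrays, 2056 and 2131 on those of untreated BCR/ABL cells, and 1239 and 1062 under imatinib. Its difference was -0.85 (SE 0.14, adjusted p = 0.117). The 3 groups did not overlap for either gene. Mrpl21, Mrpl16 and Mrpl35, all large subunit proteins with bacterial counterparts, complete the 8 genes with the smallest p, at differences of -0.66, -0.57 and -0.50 and adjusted p of 0.119 to 0.120. Mrpl21 had -0.03 by the mean over its probe sets. Its other probe sets, with mean intensities of 27.5 and 13.6, read 0.52 and 0.03. Mrpl35 had -0.84 by that mean, where its other probe sets, with mean intensities of 80.5 and 66.5, read -1.30 and -0.71.

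**Figure D2:**
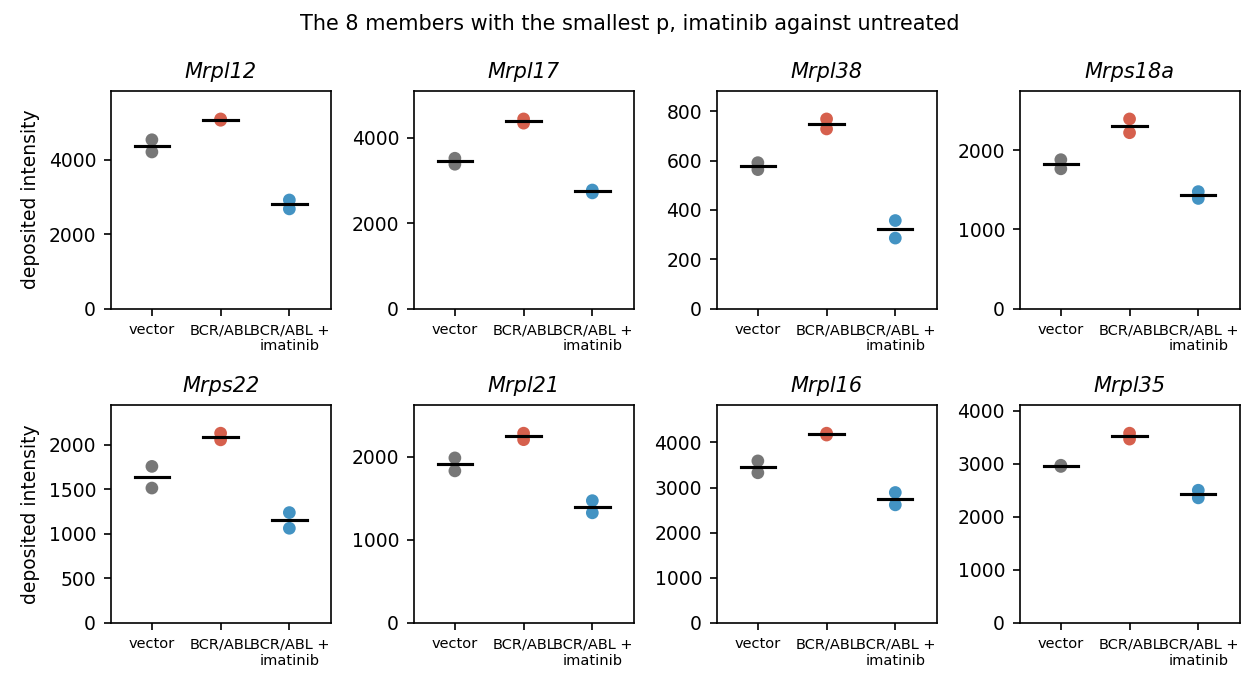
Deposited intensity (linear scale from 0) of the 8 mitochondrial ribosomal protein genes with the smallest p for imatinib against untreated BCR/ABL, with 1 point an array, 2 arrays a group, and black lines for group means. For each gene both imatinib points lie below both vector points and both BCR/ABL points above them, from 286 and 357 against 729 and 769 for Mrpl38 to 2919 and 2679 against 5098 and 5062 for Mrpl12.

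Both subunits were lower with imatinib. By the place of each protein in mammalian structures, 49 genes belong to the large and 26 to the small subunit. The large subunit had a median difference of -0.43, with 47 lower and 2 higher, and 33 lower at an unadjusted p under 0.05. The small subunit had a median of -0.53, with 26 of 26 lower and 21 at an unadjusted p under 0.05. Over all genes, 9.13% were lower at that threshold. The difference between the subunits was not tested. In the small subunit Mrps25 had the lowest difference, at -0.92 (SE 0.21, adjusted p = 0.146). Its intensities were 1977 and 2385 without and 977 and 1299 under imatinib. Its other probe sets, with mean intensities of 241 and 87.1, read -0.75 and -0.24, and the mean over its probe sets was -0.64. Mrps36, the remaining gene, is now known as a subunit of the 2-oxoglutarate dehydrogenase complex and not of the ribosome, and its difference was -0.23 (adjusted p = 0.524).

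Within the large subunit, all 5 stalk genes were lower, with a median of -0.46 and a range from -0.83 for Mrpl12 to -0.19 for Mrpl11. The 3 genes for proteins beside the peptidyl transferase centre, where peptide bonds form, were Mrpl16 at -0.57, Mrpl2 at -0.51 and Mrpl3 at -0.37. All 9 genes of the central protuberance, which faces the small subunit's head, were lower, with a median of -0.39. They reached from -1.26 for Mrpl38 to -0.01 for Mrpl52. Mrpl58, a peptidyl-tRNA hydrolase built into this region, had a difference of -0.40. Of 8 genes along the exit tunnel, through which the new chain leaves, 6 were lower and 2 higher, with a median of -0.47. Among them was Mrpl45, which ties the tunnel exit to the inner membrane, at -0.47 with intensities of 843 and 828 without and 622 and 606 under imatinib.

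Within the small subunit, the 4 genes along the path of the messenger RNA had a median of -0.60. Mrps5, at the entry of that path, had -0.80 and Mrps12, the protein of the decoding centre, -0.65. The smallest difference of these 4 was -0.50 for Mrps28. Head proteins, with 4 genes, had a median of -0.50, from -0.61 for Mrps10 to -0.05 for Mrps9. Platform proteins, also with 4 genes, had one of -0.49, from -0.66 for Mrps11 to -0.24 for Mrps18c. Genes with a bacterial counterpart had a median of -0.48 over 45 genes, and mitochondria-specific genes one of -0.42 over 30. None of these role groups was tested against another, and 0 of their genes passed.

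**Figure D3:**
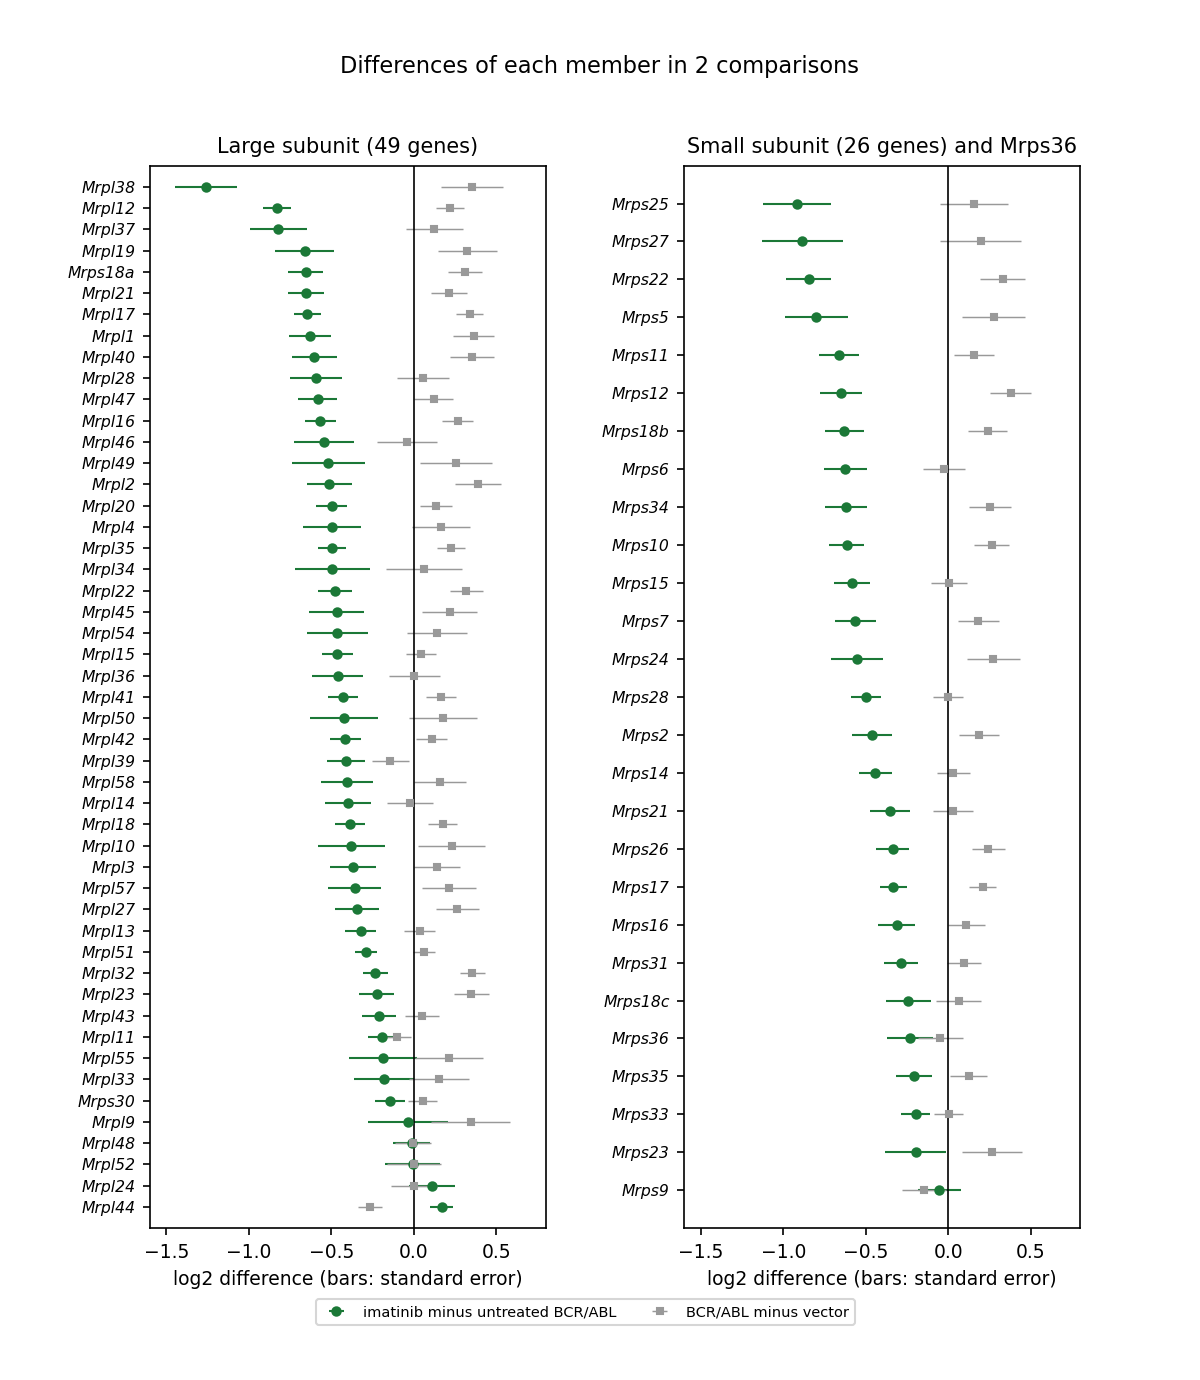
Log2 difference of each gene with its standard error for imatinib minus untreated BCR/ABL (green circles) and BCR/ABL minus vector (grey squares), split by subunit and sorted by the imatinib difference. Both comparisons use the same untreated BCR/ABL arrays. Of the green points, 74 lie below 0, from -1.26 for Mrpl38 to -0.01 for Mrpl52, and Mrpl24 and Mrpl44 lie above it.

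A few genes did not have a lower range with imatinib. The arrays overlapped for Mrpl9, Mrpl24, Mrpl33, Mrpl48, Mrpl52, Mrpl55 and Mrps9, with differences from -0.19 to 0.11. These 7 genes were picked for naming with their values known. Mrpl44, whose protein carries a fold of the RNase III family and whose human gene is mutated in a cardiomyopathy, was higher without overlap. It measured 5911 and 6061 on the vector arrays, 4814 and 5025 on those of untreated BCR/ABL cells, and 5565 and 5105 under imatinib, a difference of 0.17 (SE 0.07, adjusted p = 0.355). Its 3 other probe sets, with mean intensities of 4449, 2860 and 1045, had differences of 0.01, -0.10 and -0.31. Its sign is therefore that of the brightest probe set, and the mean over its probe sets was -0.06. For Mrps9 the brightest probe set had -0.05 and the mean over its probe sets 0.15.

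Other probe sets gave a check on the choice of the brightest. The 76 genes had 156 single-symbol probe sets, and 42 genes had more than 1. Among the 80 probe sets not chosen, 49 had a mean intensity above 100, and 40 of these were lower with imatinib, with a median of -0.38. The 31 dimmer ones had a median of -0.09. Of the chosen probe sets, 7 had identifiers ending in s_at and 3 in x_at, which mark possible shared or unspecific probes, among them those of Mrpl38, Mrpl11, Mrpl15 and Mrps23.

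The comparison of BCR/ABL with vector cells asked what the oncogene changes. Levels were higher in BCR/ABL for 66 of 76 genes, where 52.4% of all genes were higher, but the differences were small. The median log2 difference was 0.16, or 1.12 times the vector level, against 0.01 over all genes. Groups did not overlap for 42 genes that were higher and 4 that were lower, where the background was 23.9% and 20.1%. Limma called 0 of 76 genes at an adjusted p under 0.05, where 0.0989% of all genes were called higher and 0.0055% lower, and 22 of 35877 probe sets (0.0613%) were called. At an unadjusted p under 0.05, 14 genes were higher (18.4%) and 1, Mrpl44, lower, with 7.16% and 5.55% of all genes in these directions. The count of 14 was 2 without BCR/ABL replicate 2, 4 without BCR/ABL replicate 1 and 3 without vector replicate 1, where 5.17%, 4.2% and 5.99% of all genes were higher. The median stayed between 0.12 and 0.19 without any 1 array.

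Mrpl32, a large subunit protein whose processing by a mitochondrial protease precedes ribosome assembly in yeast and mouse, had the smallest p. It measured 3338 and 3477 on the vector arrays, 4419 and 4313 on those of untreated BCR/ABL cells, and 3634 and 3595 under imatinib. Its log2 difference in BCR/ABL against vector was 0.35 (SE 0.08, adjusted p = 0.243), and the groups did not overlap. The largest difference was 0.39 for Mrpl2, from 1406 and 1781 to 2089 and 2141 (adjusted p = 0.389), but it was 0.23 without vector replicate 1. In the small subunit it was 0.38 for Mrps12, from 1925 and 2173 to 2632 and 2797 (adjusted p = 0.367). Mrpl1, Mrpl17, Mrpl22, Mrpl23 and Mrps18a had differences of 0.31 to 0.36, with adjusted p of 0.280 to 0.383. By the mean over its probe sets Mrpl1 had 0.14, and its other probe set with a mean above 100 read 0.00. Mrpl17 had 0.52 by that mean, where its other probe sets, with mean intensities of 19.9 and 8.76, read 1.08 and 0.14. Medians were 0.17 in the large and 0.17 in the small subunit. The lowest values were -0.27 for Mrpl44 (adjusted p = 0.308) and, in the small subunit, -0.14 for Mrps9 (adjusted p = 0.715). The other Mrpl44 probe sets, with mean intensities of 4449, 2860 and 1045, read -0.08, 0.09 and 0.34. The mean over the Mrpl44 probe sets was 0.02, so its sign changed with the probe set. Other Mrps9 probe sets, at 1106, 464 and 131, read -0.82, 0.25 and -0.69, and the mean over its probe sets was -0.35.

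The last comparison set imatinib-treated BCR/ABL cells against vector cells. Levels lay below those of vector cells for 70 of 76 genes, where 50.2% of all genes did, and above them for 6, where 49.8% did. The median log2 difference was -0.28, or 0.825 times the vector level, against 0.00 over all genes. The groups did not overlap for 56 genes that were lower and 2 that were higher, Mrpl23 and Mrpl32, where the background was 22.3% and 21.9%. Limma called 0 of 76 genes at an adjusted p under 0.05, where 0.077% of all genes were called higher and 0.0055% lower, and 16 probe sets (0.0446%) were called. At an unadjusted p under 0.05, 35 genes were lower (46.1%) and 0 higher, where the background was 7.7% lower and 9% higher. The count of 35 was 23 without vector replicate 1, where 6.3% of all genes were lower, and 24 without imatinib replicate 2, where 5.78% were. Vector replicate 1 is also the array with the highest B cell marker sum, and a link between that sum and the count was not tested.

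Mrpl12 again had the smallest p, at -0.61 (SE 0.09, adjusted p = 0.122). Mrps28, a small subunit protein, measured 3019 and 2919 on the vector arrays, 3002 and 3039 on those of untreated BCR/ABL cells, and 2172 and 2010 under imatinib. Its difference from vector was -0.50 (SE 0.09, adjusted p = 0.150) with imatinib and 0.00 in untreated BCR/ABL. Mrps15 differed from vector by -0.58 with imatinib and 0.01 without, Mrps6 by -0.65 and -0.02, and Mrpl15 by -0.42 and 0.04. By the mean over its probe sets, Mrpl15 had -0.24 with imatinib. Other genes with a small p lay further from vector without imatinib than these. Mrpl38 had -0.91 with and 0.35 without imatinib, Mrps11 -0.51 and 0.16, and Mrpl39 -0.55 and -0.14. In untreated BCR/ABL the adjusted p of these 3 genes was 0.538 to 0.674 by limma. Untreated and vector arrays did not overlap for them, nor for Mrpl15. Over all genes, 23.9% were higher and 20.1% lower without overlap in untreated BCR/ABL against vector. The lowest values were that of Mrpl38 in the large subunit and -0.76 for Mrps25 in the small, but Mrps25 had -0.32 by the mean over its probe sets. The highest was 0.31 for Mrpl9, whose vector arrays read 1668 and 2915, and it was -0.08 without vector replicate 1. For Mrps23, the one small subunit gene above vector, the difference was 0.07, and -0.17 without that array.

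The 3 comparisons share arrays, so their values are not independent of each other. The order of group means was BCR/ABL, then vector, then imatinib for 60 of 76 genes, where 18.8% of all genes had that order. All 6 arrays kept it without overlap for 31 genes (40.8%), against 3.9% of all genes. Both imatinib arrays were below all 4 other arrays for 55 genes (72.4%), against 13.3% of all genes.

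**Figure D4:**
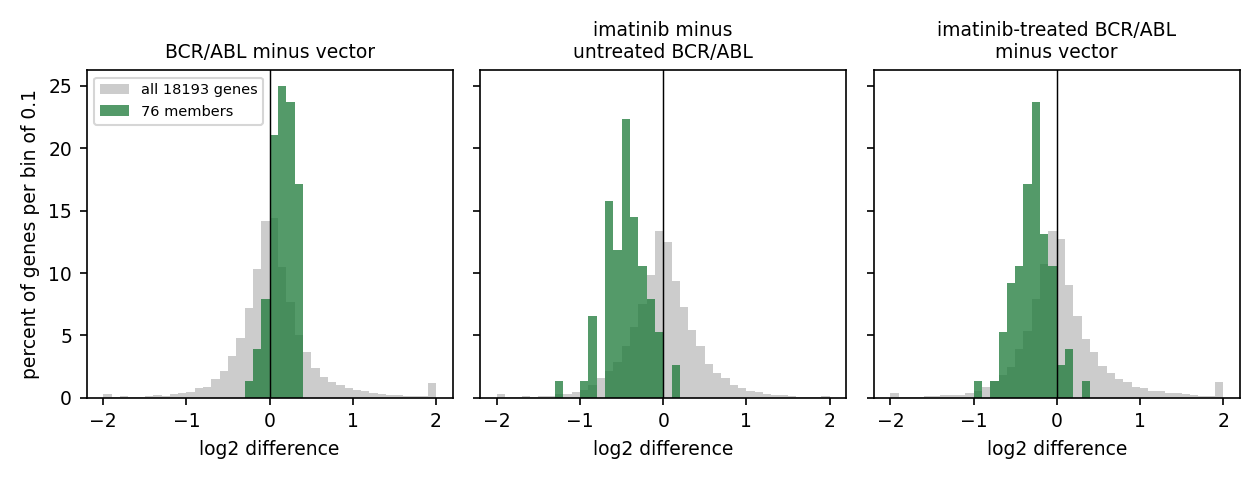
Share of genes, in percent, in bins of 0.1 of log2 difference for all 18193 genes (grey) and the 76 mitochondrial ribosomal protein genes (green) in the 3 comparisons; values beyond 2 in either direction are placed in the end bins. The green bars are shifted from 0, with medians of 0.16, -0.46 and -0.28, where the grey ones have medians of 0.01, -0.01 and 0.00.

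Other large protein complexes gave a scale for these values. The proteins of the cytosolic ribosome, with 39 genes read, had medians of 0.00 in each comparison, and 22 of 39 were lower with imatinib than without. Genes of the respiratory chain and ATP synthase, which joins subunits made on the mitochondrial ribosome with nuclear ones, had a median of -0.17 with imatinib against untreated over 80 genes, 70 of them lower. In that comparison 34 of the 80 were lower at an unadjusted p under 0.05, where 9.13% of all genes were, and 0 passed. Differences between these families and the mitochondrial ribosomal genes were not tested, and signal levels were not matched between them. Among the 76 mitochondrial ribosomal genes, the brighter 38 had a median imatinib difference of -0.33 and the dimmer 38 one of -0.53.

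Some proteins of the mitochondrial ribosome carry other names. A list of these, which also holds 1 protein formerly counted with them, had 5 measured genes, and all were lower with imatinib than without, with 0 passing. Gadd45gip1, a large subunit protein, had -1.31 (adjusted p = 0.130), from 575 and 697 in BCR/ABL to 310 and 228 with imatinib. The small subunit genes Chchd1 and Ptcd3 had -0.80 (adjusted p = 0.108) and -0.61 (adjusted p = 0.153). Dap3, a GTP-binding protein of the small subunit, had -0.13. Lactb, the gene formerly counted as ribosomal and now known for a filament-forming relative of proteases, had -0.24.

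Ribosome assembly has its own set of proteins. Of 23 genes for assembly factors and RNA-modifying enzymes, 16 were lower and 7 higher with imatinib, with a median of -0.15, 3 lower at an unadjusted p under 0.05, and 0 passing. That count is near the background of 9.13% of all genes. Mrm3, which methylates the large ribosomal RNA, had the smallest p at -1.10 (adjusted p = 0.121), with 577 and 646 without and 293 and 300 under imatinib. Fastkd2 had -0.47 and the GTPase gene Noa1 -0.35.

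Translation factors of mitochondria had a median of -0.31 over 13 genes, 11 of them lower with imatinib. Tufm, the elongation factor that brings aminoacyl-tRNA to the ribosome, measured 2208 and 2874 without and 1419 and 1313 under imatinib, a difference of -0.85 (adjusted p = 0.121). Lrpprc and Slirp, which together stabilise mitochondrial messenger RNA, had -0.73 and -0.31. All 16 measured genes for mitochondrial tRNA synthetases were lower, with a median of -0.39, 6 at an unadjusted p under 0.05, where 9.13% of all genes were lower, and 0 passing. Tars2 had -0.83, Rars2 -0.55 and Yars2 -0.71, with adjusted p of 0.152 to 0.234.

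Promoters of the genes were read for motifs of factors known to drive nuclear genes for mitochondria. RefSeq promoter windows, 250 bases before to 50 after a start site on GRCm38.p6, were found for 67 of the 76 genes. The motif CCGGAAG of the ETS factor GABPA, on either strand, was in a window of 25 of 67 genes (37.3%), against 15% of 14452 genes of the array and 8.86% of all 32851 windows. The NRF1 motif GCATGCGC was found for 8 genes (11.9%, against 4.68% and 2.71%), and the YY1 motif AAGATGGC for 12 (17.9%, against 4.07% and 2.75%). The E-box CACGTG, which MYC and USF proteins bind, was found for 5 genes (7.46%, against 10.2% and 7.15%). A stretch that matches more than 1 motif counts for each, and at least 1 of the 4 was found for 39 genes (58.2%), against 29.2% of the genes of the array. General promoter motifs were searched as well and are not among the 4. Each had a lower share in the 67 genes than in the genes of the array. The SP1 motif GGGCGG was found for 34 genes (50.7%, against 57.3% and 35.7%). TATAAA was found for 5 (7.46%, against 11.5% and 13.6%) and CCAAT for 26 (38.8%, against 42% and 37.4%). The median GC content was 58.7% for the windows of the 67 genes and 58.3% for those of the array. Genes of the array were not matched to the 67 for signal level. With and without CCGGAAG, the genes had median imatinib differences of -0.36 over 25 and -0.46 over 42. For NRF1 the medians with and without the motif were -0.40 and -0.44, for YY1 -0.56 and -0.40, and for the E-box -0.50 and -0.42, so the sign of the gap was not the same for the 4 motifs, and none was tested. A match is a description of the letters and not a site in use.

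Stretches of 150 bases that end just before the start site show what these promoters look like for genes the results turn on. Capitals mark a match to 1 of the 4 motifs on either strand, and the sequences are RefSeq's on GRCm38.p6, 5′ to 3′ on the strand of the gene. Mrpl12 (chr11:120484487-120484636, plus strand), with the smallest p for imatinib against untreated, had no match in the stretch shown. Nor did Mrpl44 (chr1:79775868-79776017, plus strand), whose brightest probe set had the highest imatinib difference. Mrpl17 (chr7:105811088-105811237, minus strand) had an NRF1 match, and Mrps18a (chr17:46110854-46111003, plus strand) and Mrps22 (chr9:98601680-98601829, minus strand) a GABPA match.
Mrpl12: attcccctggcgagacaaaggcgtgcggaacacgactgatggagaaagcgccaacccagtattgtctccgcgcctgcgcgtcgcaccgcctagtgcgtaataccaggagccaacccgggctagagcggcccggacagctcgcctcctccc
Mrpl17: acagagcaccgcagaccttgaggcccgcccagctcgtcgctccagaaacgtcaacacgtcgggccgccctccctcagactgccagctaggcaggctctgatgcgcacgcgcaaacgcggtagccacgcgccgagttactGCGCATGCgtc
Mrps18a: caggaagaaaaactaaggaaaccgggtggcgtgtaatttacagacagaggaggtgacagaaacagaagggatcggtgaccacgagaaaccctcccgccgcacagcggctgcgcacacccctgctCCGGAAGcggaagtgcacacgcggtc
Mrps22: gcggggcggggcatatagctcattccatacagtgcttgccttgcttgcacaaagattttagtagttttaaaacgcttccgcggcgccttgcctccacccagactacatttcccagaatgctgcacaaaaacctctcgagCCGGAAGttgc
Mrpl44: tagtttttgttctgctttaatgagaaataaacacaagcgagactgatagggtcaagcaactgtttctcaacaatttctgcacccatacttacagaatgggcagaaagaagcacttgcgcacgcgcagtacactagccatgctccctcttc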

How the data were processed

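Expression was measured in 3 groups of 2 arrays, grouped by sample title. Each deposited value is the linear intensity of a probe set. The submitters' processing notes name Affymetrix Expression Console and MAS5, without versions. Every array, as deposited, averaged 500 once the top and bottom 2% were trimmed. The design text names a whole-transcript array, while the probe set identifiers belong to an older 3-prime array, and the values were used as those of the latter. The gene symbols are those of the platform annotation. No genome build is named for the files, so only promoter windows carry coordinates.

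Of 45101 probe sets, 64 controls were left out. Values were transformed as log2(intensity + 16) and quantile normalized, since array medians ran from 5.69 to 6.19. Counts of genes without overlap between groups use these normalized values, and deposited intensities can differ from them in overlap. The 35877 probe sets with a symbol (34945 with 1, 932 with several) were fitted with limma 3.58.1 in R 4.3.3 (lmFit, eBayes with trend=TRUE) in 1 model over 6 arrays, with 3 residual and 2.97 prior degrees of freedom. Tests were two-sided, with Benjamini-Hochberg adjustment over all probe sets and a threshold of 0.05. The number of arrays limits the precision. The method was tested on simulated data with changes added to the BCR/ABL group alone, larger than the medians reported for the members. Recovery of differences the size of those medians was not tested. No filter on low values was used. Counts over all genes use 1 probe set a gene, as for the members.

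The members, gene lists and roles were chosen with earlier results of these data known. Named in each comparison were the 8 genes with the smallest p, the extremes of each subunit and examples of each role group or list. A total of 15 alternatives changed scaling, the added constant, the filter, the variance prior, the block, the probe set rule, or left out 1 array. The NRF1 and YY1 motifs were cut to 8 letters after longer forms had been searched, and the longer YY1 form was found in fewer promoters.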

Additional observations from a re-analysis of the deposited data

How the results depend on the processing

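No alternative turned the direction of the medians over the 76 genes in any comparison. With array medians in place of quantile normalization, the median of all genes itself moved to 0.20, -0.27 and -0.09 in BCR/ABL against vector, imatinib against untreated and imatinib-treated against vector. The medians of the 76 genes were then 0.39, -0.79 and -0.40, and 39 of the 76 passed in the imatinib comparison, all from a fit that called 1200 probe sets and 3.79% of all genes lower; the other comparisons called 298 and 275 probe sets. Above the 50th percentile, with fewer probe sets tested, Mrpl12, Mrpl17 and Mrpl38 (adjusted p = 0.0373, 0.0418 and 0.0481) passed in the imatinib comparison, 3 of 76, where 0.733% of genes were called lower, and Mrpl12 (adjusted p = 0.0353), 1 of 76, passed against vector, where 0.208% were; 141, 200 and 184 probe sets were called. With 1 as the added constant 83, 3 and 78 probe sets were called, and with 64 it was 3 in imatinib-treated against vector. Without a trend in the prior 0 were called in BCR/ABL against vector and 0 in imatinib-treated against vector, a robust prior gave 42 and 28, and the mean over the probe sets of a gene gave 38 in the first. That mean also gave -0.37 for the imatinib median, or -0.35 relative to all genes. Without 1 array, the probe set counts ran from 0 to 38 in BCR/ABL against vector and from 0 to 54 in imatinib-treated against vector. Members past the threshold stayed at 0 in the other alternatives run. Single genes changed sign with array medians (Mrps9 0.089 in BCR/ABL against vector, Mrpl44 -0.21 with imatinib, Mrps23 -0.058 against vector) and with the mean over probe sets (Mrpl44 0.022 in BCR/ABL and -0.060 with imatinib, Mrps9 0.15). The mean over probe sets also moved Mrps9 to -0.35 in BCR/ABL against vector, and array medians moved Mrpl44 to -0.071 there and Mrpl9 to 0.18 in imatinib-treated against vector. Without imatinib replicate 2 Mrps9 was at 0.10, and without 1 array Mrpl9 ran from -0.076 to 0.70 and Mrps23 from -0.17 to 0.31 against vector, lowest without vector replicate 1 and highest without vector replicate 2. Counts at an unadjusted p, added after seeing the data, were 25 higher with array medians and 4 without a trend in BCR/ABL against vector, where 12.1% and 6.83% of all genes were, and 21 lower with the mean over probe sets in imatinib-treated against vector, where 6.95% were. With the replicate block 9 probe sets were called in imatinib-treated against vector, against 16 without it, and 0 of the 76 in any comparison. The sample titles give same-numbered arrays only a shared number. Deviations of replicate 1 from 2 correlated at -0.08, 0.17 and 0.14 between the groups. Such correlations cannot tell whether same-numbered arrays were handled together. The cause of these changes was not tested.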

Other observations

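Genes that copy and express mitochondrial DNA were read beside those of the mitochondrial ribosome. Of 19 measured, 16 were lower and 3 higher with imatinib than without, with a median of -0.26, 7 lower at an unadjusted p under 0.05 where 9.13% of all genes were, and 0 passing in limma. Top1mt, the topoisomerase of mitochondrial DNA, measured 504 and 440 on the vector arrays, 578 and 690 on those of untreated BCR/ABL cells, and 320 and 366 under imatinib, a log2 difference of -0.94 (adjusted p = 0.141). Both imatinib arrays lay below the other 4. Trmt10c, a subunit of mitochondrial RNase P, had -0.47 (adjusted p = 0.208). Tfam, which packs mitochondrial DNA and starts its transcription, had -0.19 and Ssbp1, which binds its single strands, -0.08.

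Factors known to drive nuclear genes for mitochondria did not share 1 direction, with 6 of 11 higher and 5 lower with imatinib, and 0 passing. Atf4, a stress-response factor, measured 4032 and 4007 on the vector arrays, 5138 and 5173 on those of untreated BCR/ABL cells, and 3883 and 3675 under imatinib, and its differences were 0.36 in BCR/ABL against vector (adjusted p = 0.221) and -0.41 with imatinib against untreated (adjusted p = 0.121). Pprc1, a relative of the PGC-1 coactivators, had -0.65 with imatinib (adjusted p = 0.165) and Nrf1 -0.83 (adjusted p = 0.269), where Nrf1 read 236 and 336 without and 152 and 198 under imatinib. Gabpa, whose motif was found for 25 of the 67 genes with a promoter window, had a difference of 0.34 (adjusted p = 0.342). Myc had -0.15 (adjusted p = 0.568), with intensities of 2557 and 2362 without and 2144 and 2219 under imatinib.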
